A study of Mus musculus with 35 samples.

Results

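The comparison described here set skin wounds of cilengitide-treated Col5a1CKO mice against wounds of vehicle-treated wild-type (WT) mice, to ask what still differed from WT under integrin inhibition. Its members are the 4 libraries labelled as Col5a1 CKO with cilengitide and the 4 labelled as WT with vehicle in the count table of the cilengitide experiment, 8 of the 35 samples of the series. The series measured RNA by bulk sequencing in wounded mouse skin, in WT and Col5a1CKO mice at day 14 and at a later day, in Col5a1CKO wounds that received WT fibroblasts, and in the cilengitide experiment. Col5a1CKO mice were Col1a2CreERT:Col5a1 fl/fl, so that tamoxifen removes Col5a1 in cells in which the Col1a2 enhancer is active, chiefly fibroblasts. WT mice were Cre-negative Col5a1 fl/fl littermates on the same C57BL/6 background and also received tamoxifen. All of them, of either sex and 8 to 12 weeks old, were given a full-thickness dorsal excision, and the middle of the wound was taken as a punch at day 14. Cilengitide was injected daily at 20 mg/kg from the day before wounding, and the WT mice and 4 further Col5a1CKO mice of the same table received vehicle. No WT mice with cilengitide are among the samples used here, so a lasting effect of the deletion and an effect of the drug itself cannot be told apart. The label of the cilengitide libraries names no day, and day 14 is taken from the design text of the series.

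Type V collagen is a minor fibrillar collagen that is built into type I and type III collagen fibrils and sets their number and diameter. Cilengitide is a cyclic peptide that carries the Arg-Gly-Asp motif and blocks the integrins αvβ3 and αvβ5, which bind vitronectin, fibronectin, osteopontin and thrombospondins and can release active TGF-β from its latent complex. A closing skin wound is covered by keratinocytes that migrate from the edge and from hair follicles, first with a wound-edge programme (keratins 6, 16 and 17) and then with stratification and a cornified layer. Granulation tissue below it holds fibroblasts and myofibroblasts, new vessels and leukocytes, which decline as repair proceeds.

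The 8 libraries held 52136431 to 68266760 counts each, and 15514 genes passed the filter on low counts. Levels are given below in CPM, counts divided by a TMM-scaled library size, always in the order of replicates 1 to 4, and a difference is the log2 fold change of cilengitide-treated Col5a1CKO minus WT with its standard error (SE). A gene is called when its Benjamini-Hochberg adjusted p in edgeR's quasi-likelihood test was under 0.05 and its change at least 2-fold. The study states that its n counts biological replicates, so the 4 libraries of a group are taken as separate mice. Their titles carry different numbers. The WT libraries fell into 2 pairs: WT 1 and 2 were high in collagens (Col1a1 at 15322, 14502, 3156 and 2792 CPM in WT 1 to 4) and WT 3 and 4 low, whereas the cilengitide libraries held 14631, 18881, 19417 and 15479.5 CPM. Their titles give the members of a pair numbers that lie close together, and cilengitide replicate 1 a number next to the first pair. Cilengitide replicates 2 and 3 have numbers shortly after the second pair, and replicate 4 has one far from both pairs. What the numbers stand for is not labelled, and replicates are numbered in accession order. Y-linked RNA marked WT 2 and 4 and cilengitide replicates 1 and 4, so each group had 2 male and 2 female libraries. Of the vehicle-treated Col5a1CKO libraries, shown only beside them, 3 had Y-linked RNA and replicate 2 had neither Y-linked RNA nor more than 0.922 CPM of Xist. Rank correlations (Spearman, over 15915 genes, as a description) were 0.974 to 0.988 among the cilengitide libraries, 0.947 to 0.974 among the WT libraries and 0.894 to 0.975 between them. As bulk samples they cannot separate fewer cells of a type from less RNA per cell. Defining genes of wounded skin were present in every library of both groups: Krt5 at 5338 to 7082 CPM in WT and 3729 to 6675 CPM with cilengitide, Col3a1 at 4317 to 22506 and 12684 to 34592 CPM, and Ptprc (CD45) at 34.9 to 53.9 and 95.1 to 234 CPM.

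Col5a1 (NCBIM37, GENCODE vM1, chromosome 2, 27741945 to 27895034, plus strand), the deleted gene, was read first. It stood at 2627, 2539, 466 and 449 CPM in the WT libraries and at 445, 254, 236 and 903 CPM in the cilengitide libraries. The groups overlapped, because cilengitide replicate 4 lay above WT 3 and 4, which were themselves far below WT 1 and 2. The difference of -1.72 ± 0.74 was not called (adjusted p = 0.12), and it was -2.26 without cilengitide replicate 4. Relative to the other collagens of the same wound the groups parted. Counts of Col5a1 per count of Col1a1 were 0.148 to 0.175 in WT and 0.0122 to 0.0583 with cilengitide, a mean difference of -2.81 on the log2 scale. Against Col1a2, Col3a1 and Col5a2 the differences were -2.75, -2.59 and -3.09. In each of the 4 ratios every cilengitide library lay below every WT library (2-sided exact permutation test, p = 0.0286 for each, 0.0286 after adjustment over the 4 ratios, the smallest value that 4 against 4 can give). Vehicle-treated Col5a1CKO wounds held 0.0215 to 0.0568 counts of Col5a1 per Col1a1, and their mean log2 ratio differed from that of the cilengitide wounds by -0.69 (cilengitide minus vehicle, exact permutation p = 0.286).

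**Figure D1:**
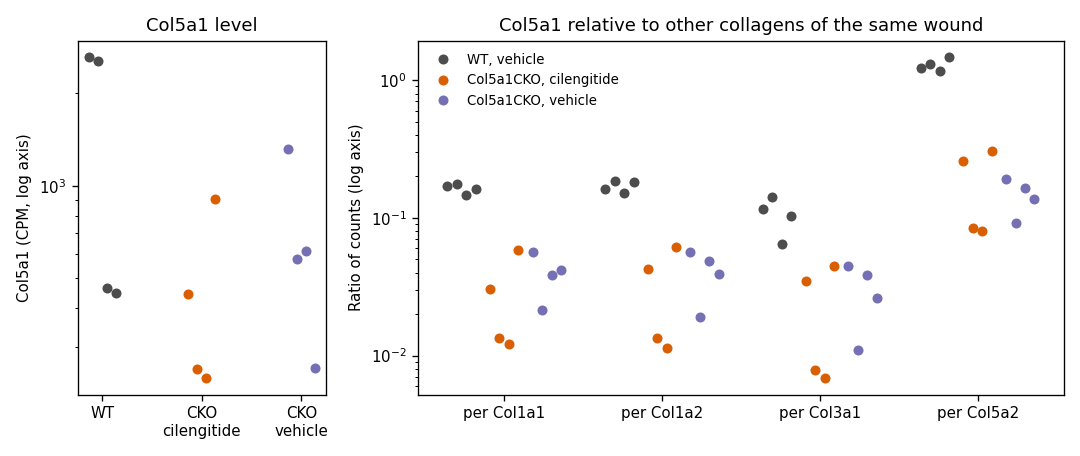
Col5a1 in each library: CPM on a log axis at left, and counts of Col5a1 per count of 4 other collagens of the same library, on a log axis, at right. Each point is 1 library, in replicate order from left to right. WT levels span 449 to 2627 CPM and overlap the cilengitide levels of 236 to 903 CPM, while all 4 ratios lie lower in every cilengitide library than in any WT library.

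A second gene followed the genotype. Prm1, a protamine of sperm chromatin with no known role in skin, had 1 count in all over the 4 WT libraries and 922 over the 4 cilengitide libraries. Its level was 3.8, 3.48, 3.32 and 3.4 CPM with cilengitide and 3.3, 3.74, 3.86 and 2.47 CPM in the vehicle-treated Col5a1CKO wounds. Against a floor of 3 counts over the WT group it was at least 273-fold higher with cilengitide, and it was the gene still called after leaving out any one of cilengitide replicates 2, 3 and 4. The source of these counts was not tested.

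Across all genes, 799 were higher in cilengitide-treated Col5a1CKO wounds than in WT (5.15% of the 15514 tested) and 532 were lower (3.43%). The 4 libraries of one group did not overlap the 4 of the other for 757 of the 799 and for 456 of the 532, whereas over all genes tested 14.5% lay above WT without overlap and 15.5% below it. The same test gave 2706 higher and 2065 lower genes in vehicle-treated Col5a1CKO against the same 4 WT libraries, and between cilengitide and vehicle in Col5a1CKO wounds 1008 and 1025. These comparisons share libraries, so their values are set side by side only. The calls depended on single libraries. Without WT 3 there were 87 higher and 196 lower genes, without WT 4 there were 287 and 268, and without cilengitide replicate 2, 3 or 4 there were 3, 1 and 1 higher and 0 lower, namely Fgf7, Sod3 and Prm1 without replicate 2 and Prm1 alone without the others (named after their values were seen). In those 3 fits the gene ranked 500 by adjusted p had 0.0517, 0.0556 and 0.0540 against 0.0195 with all 8 libraries. At an unadjusted p under 0.05 with the same fold they held 1234 to 1280 higher and 649 to 708 lower genes, and DESeq2 called 1153 to 1179 and 656 to 721. Each of the 1331 called genes kept its direction in all 8 fits that left out 1 library, where a gene not tested in a fit was counted as keeping it. The genes were selected in these same libraries, so this is no independent support.

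Among the genes with the smallest adjusted p, the 10 that were higher and clear of overlap were Sod3, Aldh3b1, Angptl4, Ctgf, Mmp19, St3gal1, Zyx, Kcnn4, Meg3 and Fgf7. Sod3 (NCBIM37, chromosome 5, 52755185 to 52762644), the extracellular superoxide dismutase, stood at 16.8, 17, 26.5 and 16.5 CPM in WT and 90, 71.7, 123 and 92.7 CPM with cilengitide, a difference of 2.30 ± 0.22 (adjusted p = 0.015), and at 92.4 to 412 CPM in vehicle-treated Col5a1CKO wounds. Fgf7 (chromosome 2, 125860394 to 125916921), the keratinocyte growth factor made by dermal fibroblasts, was at 2.56, 3.07, 3.22 and 3.63 CPM in WT and 20.9, 8.57, 35.5 and 27.7 CPM with cilengitide (2.89 ± 0.41, adjusted p = 0.0193). The lowest cilengitide library lay well above the highest WT library for each of these, and lack of overlap was part of the rule that chose them. Ctgf, a matricellular target of TGF-β and YAP, was at 10.6 to 18.4 CPM in WT and 44.8 to 81 CPM with cilengitide (2.10 ± 0.22). Angptl4, an inhibitor of lipoprotein lipase that is induced by hypoxia and PPARs, was at 5.56 to 8.89 CPM and 19.3 to 25.7 CPM (1.61 ± 0.17). Zyx, the focal adhesion protein zyxin, was higher by 1.14 ± 0.14 and Mmp19, a matrix metalloproteinase, by 1.45 ± 0.17. The imprinted long non-coding RNA Meg3 was higher by 2.50 ± 0.35, at 58.6, 29, 26.7 and 40.4 CPM against 6.28, 10.6, 5.82 and 4.68 CPM. Aldh3b1, an aldehyde dehydrogenase, the sialyltransferase St3gal1 and the calcium-activated potassium channel Kcnn4 were higher by 1.58, 1.38 and 1.55. In vehicle-treated Col5a1CKO wounds Meg3 lay at 18.3 to 74.2 CPM, a range that holds all 4 cilengitide values, and Fgf7 at 33.6 to 151 CPM.

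The 10 lower genes by the same rule were Cxadr, Il1f10, Card14, Krt23, Sprr4, Gna14, Cacna2d2, Lipn, Plcxd2 and Cst6. Card14 (chromosome 11, 119169082 to 119206689), which activates NF-κB in keratinocytes, stood at 72.3, 47.1, 80.7 and 69.1 CPM in WT and at 24.6, 20.4, 19.3 and 19.7 CPM with cilengitide (-1.68 ± 0.18, adjusted p = 0.015). Il1f10, the cytokine IL-38, stood at 4.29, 7.42, 5.66 and 8.85 CPM and 1.16, 1.26, 1.14 and 1.12 CPM (-2.49 ± 0.25). The 4 cilengitide values lay close together for both, and far under the lowest WT library, though the rule chose genes for lack of overlap. Cst6, the cystatin that restrains cathepsins of the cornified layer, was at 612 to 883 CPM in WT and 253 to 347 CPM with cilengitide (-1.34 ± 0.17). Krt23, an epithelial type I keratin, was at 183 to 352 CPM and 55 to 68.2 CPM (-2.01 ± 0.21), and Sprr4, a small proline-rich precursor of the cornified envelope, at 21.7 to 33.4 CPM and 4.28 to 8.23 CPM (-2.05 ± 0.22). All 3 were clear of overlap, as the rule required. Lipn, a lipase of the granular layer, differed by -1.65 and Cxadr, the coxsackie and adenovirus receptor of epithelial junctions, by -1.04. Gna14, a G-protein alpha subunit, Cacna2d2, a calcium channel subunit, and Plcxd2 differed by -1.38, -1.96 and -1.46. In the vehicle-treated Col5a1CKO wounds Card14 lay at 0.153 to 2.82 CPM, Krt23 at 0.351 to 5.76 CPM and Cst6 at 0.433 to 56.1 CPM.

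**Figure D2:**
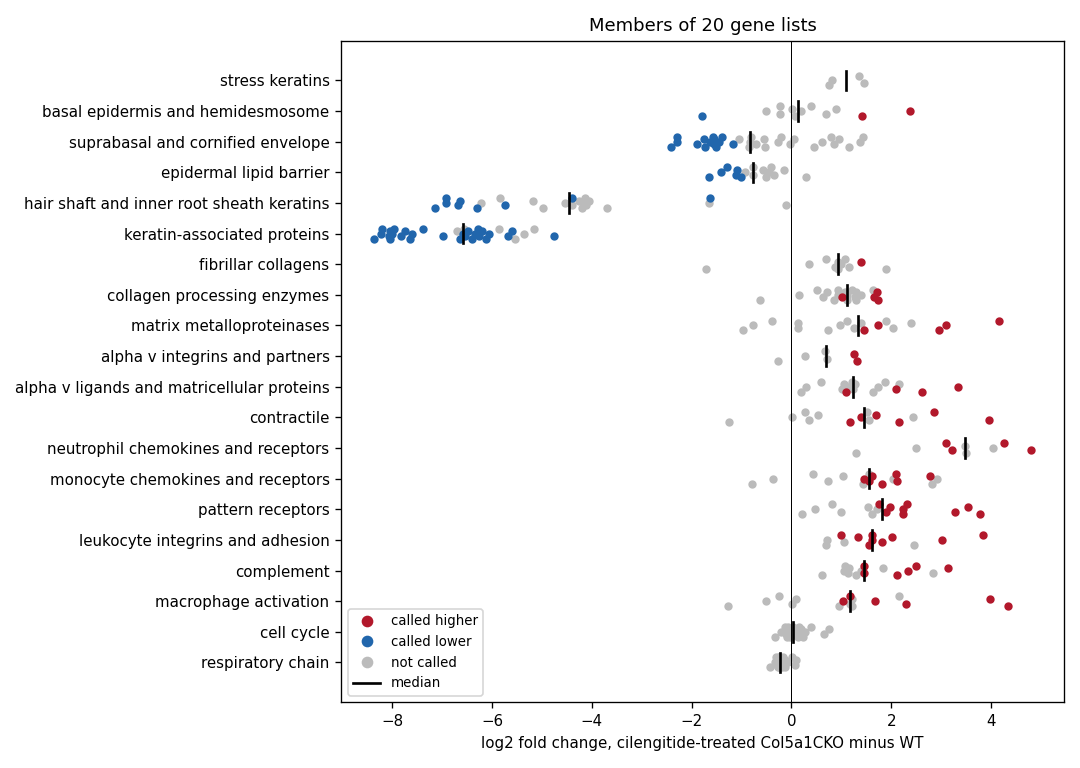
Log2 fold change of cilengitide-treated Col5a1CKO minus WT for the tested members of 20 gene lists, 1 point a gene, with called genes in colour and the list's median as a black bar. The medians of late epidermal and hair lists lie left of 0, those of inflammatory, matrix and contractile lists right of it, and cell cycle and respiratory chain genes near 0. The hair medians are no support for a difference, because such genes pass the filter only through WT libraries in which they are high.

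Late differentiation genes of the epidermis were below WT. Of 33 tested genes of the suprabasal layers and cornified envelope, 14 were lower and 0 higher, with a list median of -0.83 against -0.01 over all genes tested. The paired keratins of the spinous layers, Krt1 and Krt10, were lower, with -1.39 ± 0.41 and -1.74 ± 0.48 (adjusted p = 0.0475 and 0.0396). Krt10 stood at 37467, 19243, 41349 and 38889 CPM in WT and 20188, 6394, 7077 and 7015 CPM with cilengitide. Both groups overlapped for these keratins, because cilengitide replicate 1 was higher than WT 2. Their late relative Krt77 did not overlap, at 2053, 918, 1266 and 2703 CPM against 534, 262, 243 and 370.1 CPM (-2.30 ± 0.41, adjusted p = 0.0193). Lor (loricrin) and Ivl (involucrin), which are crosslinked into the envelope, were lower, with -1.76 and -1.89. Flg2, a filaggrin relative of the granular layer, was lower (-2.30 ± 0.42). Lce1m, a late cornified envelope protein, was at 167, 67.3, 153 and 290.1 CPM in WT and 38.4, 24.2, 33.7 and 30.6 CPM with cilengitide (-2.42 ± 0.41), without overlap. Krt78, Hrnr, Lce1a1, Lce1b, Lce1c, Klk5 and Asprv1 made up the rest of the 14. Members of the small proline-rich family that are induced in wounds did not pass the test and had positive differences: Sprr1b stood at 343 to 758 CPM and 689.9 to 1309 CPM (0.95, adjusted p = 0.0598), and Sprr2d at 48.1 to 510.4 and 581 to 1173 CPM (1.44, adjusted p = 0.114). The list median lay at -0.96 to -0.74 when each library was left out in turn, and at -4.51 in the vehicle-treated Col5a1CKO wounds. With all 3 groups of the experiment in a single fit, none of the list was called.

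Genes for the lipid barrier, which acylate and process ceramides between the cornified cells, showed the same direction, with 6 of 16 lower, 0 higher and a median of -0.78. Aloxe3, a lipoxygenase whose loss causes ichthyosis, was at 69.1, 51.7, 77.4 and 99.8 CPM and 38.1, 21.5, 25.9 and 26 CPM (-1.42 ± 0.25), and the ceramidase Acer1 at 167, 131, 228 and 197 CPM and 104, 61.5, 63.6 and 67 CPM (-1.29 ± 0.23). No library of one group reached into the other for either gene. Alox12b, Abca12, Pnpla1 and Lipn were the other 4. None of the 16 was called with all 3 groups in a single fit or without both WT 3 and WT 4. Of 15 epidermal transcription factors, Gata3 and Barx2 were lower, with -1.56 ± 0.25 and -1.43 ± 0.28, and Elf3, an epithelial factor of stressed epidermis, was higher by 1.12 ± 0.27. Many of these genes are neighbours. In the epidermal differentiation complex between S100a10 and S100a1 (NCBIM37, chromosome 3, 90314956 to 93368565), which holds the loricrin, involucrin, filaggrin, small proline-rich and late envelope genes, 22 of 58 tested genes were lower and 0 higher.

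The main basal keratins and the wound-edge keratins did not pass the test. Krt5 and Krt14, the pair of basal cells, differed by -0.22 ± 0.21 and 0.69 ± 0.32 (adjusted p = 0.443 and 0.143). Each of the 4 wound-edge keratins had a positive difference, of which 1 passed with at least 2-fold at an unadjusted p under 0.05 and DESeq2 called 2: Krt6a 1.47, Krt6b 1.36, Krt16 0.81 and Krt17 0.75 (adjusted p = 0.0806, 0.131, 0.218 and 0.0547). Krt6a stood at 2799, 3368, 1371 and 492 CPM in WT and 4932, 7085, 6046 and 4031 CPM with cilengitide without overlap. Krt6a and Krt6b are near-identical copies, so reads may have been split between them. Lama3, a laminin chain of the epidermal basement membrane, was higher by 1.42 ± 0.33, with cilengitide replicate 1 inside the WT range. The desmosomal cadherin Dsg3 was higher by 1.03 ± 0.29, the 1 called of 15 desmosome genes, of which 11 had negative differences (median -0.31). Of 12 basal genes 2 were called higher and 1 lower. The lower one was Krt15, a keratin of resting basal and follicle cells, at 362, 434, 722 and 1084 CPM and 298, 173, 147 and 136 CPM (-1.79 ± 0.42). Negative differences were found in 4 of the 12. The vehicle-treated Col5a1CKO wounds varied widely, with Krt14 at 1005, 28, 98.4 and 8718 CPM.

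**Figure D3:**
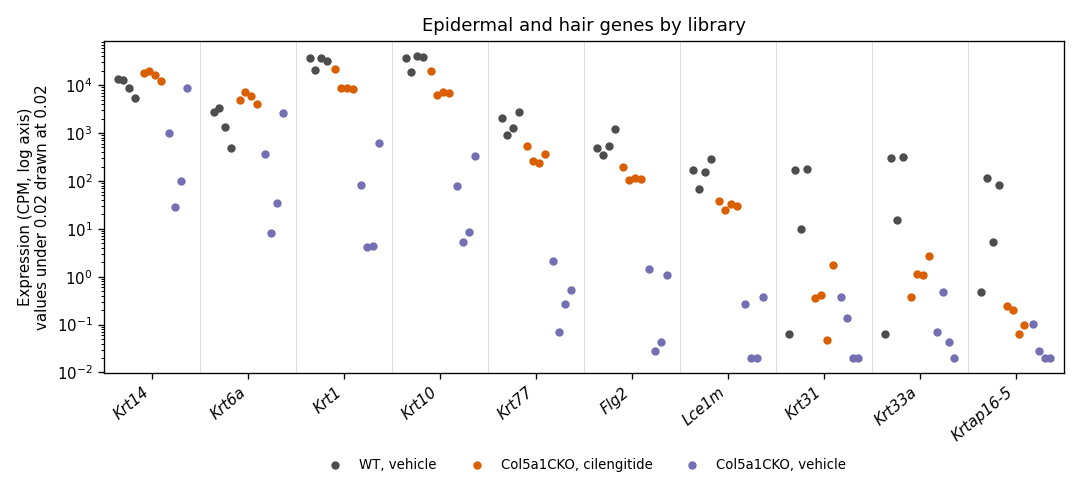
Epidermal and hair genes in each library of WT, cilengitide-treated and vehicle-treated Col5a1CKO wounds, in CPM on a log axis, 1 point a library in replicate order, with values under 0.02 drawn at 0.02. Krt6a lies above WT in every cilengitide library and Krt14 overlaps WT. Krt77, Flg2 and Lce1m sit below WT in every cilengitide library, and the hair genes are highest in WT 2 and 4.

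The largest list medians were those of hair genes, which were high in WT 2 and 4. All 24 tested keratins of the hair shaft and inner root sheath had negative differences (median -4.47), and 9 were called lower. Of 52 keratin-associated protein genes, which fill the matrix of the hair shaft, 34 passed the filter on low counts, and 28 of these were lower (median -6.57). The other 18 were too low to be tested, and such genes pass only through the WT libraries in which they are high, so these counts and medians are no support for a difference. Krt31 stood at 0.062, 167, 9.69 and 181 CPM in WT and 0.354, 0.411, 0.0474 and 1.77 CPM with cilengitide (-7.14 ± 2.04, adjusted p = 0.0446). Krt33a stood at 0.062, 297, 15.4 and 314 CPM and 0.383, 1.13, 1.06 and 2.66 CPM (-6.93 ± 1.96), and Krtap16-5 at 0.481, 116, 5.23 and 83.8 CPM and 0.241, 0.205, 0.0632 and 0.0986 CPM (-8.37 ± 1.78). WT 2 and 4 were high, WT 3 was intermediate, and WT 1 lay at or near the level of the cilengitide libraries. The groups overlapped for all but 2 of the 24 keratins and all but 3 of the 34 keratin-associated genes. Summed over the 24 keratins, the WT libraries held 100.4, 8025, 634 and 10907 CPM and the cilengitide libraries 219, 232, 204 and 581 CPM. WT 2 and 4 are the 2 male WT libraries. With sex as a covariate 7 keratin-associated genes were lower, without both WT 2 and WT 4 there were 2 and the median moved to -2.09, and without WT 3 and without WT 4 there were 4 and 2. A gene of hair bulb melanocytes moved with these libraries: Dct, an enzyme of melanin synthesis, stood at 5.04, 95.5, 17.9 and 201 CPM in WT and 8.06, 3.67, 4.02 and 26.9 CPM with cilengitide (-2.92, adjusted p = 0.104). The share of hair in each punch was not tested. Krt85, the earliest hair keratin, was also highest in WT 2 and 4 (31.4, 103, 20 and 111 CPM), but the cilengitide libraries lay between these and the other WT libraries (51.5, 76.8, 64.5 and 54.5 CPM, -0.11). Without both WT 2 and WT 4, 1 of the 24 keratins was called higher and 1 lower, with a median of -1.05. Of 19 tested regulators of the follicle, 2 were lower. Dlx3, a homeobox factor of both hair and suprabasal epidermis, was at 57.8, 113, 64.4 and 189 CPM and 34.6, 19.6, 21.4 and 26 CPM (-2.06 ± 0.41), and Gsdma, a gasdermin of differentiated keratinocytes, was lower (-1.06 ± 0.16).

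In the dermal matrix the interstitial collagens did not pass the test. Col1a1, Col1a2, Col3a1 and Col5a2 had differences of 0.94, 0.87, 0.94 and 1.15 (adjusted p = 0.252, 0.316, 0.239 and 0.207). For all of them every cilengitide library lay above WT 3 and 4, and WT 1 reached into the cilengitide range. Of the 11 fibrillar collagen genes 1 was higher, Col5a3, which codes for the third chain of type V collagen, at 303, 377, 264 and 153 CPM in WT and 608, 834, 658 and 787 CPM with cilengitide (1.40 ± 0.25, adjusted p = 0.0193). No cilengitide library of Col5a3 fell into the WT range, so that of the 3 type V chains Col5a3 rose, Col5a2 did not pass the test and Col5a1 was low relative to Col5a2. Of 21 enzymes that modify and crosslink collagen, 4 were higher and 0 lower (median 1.11): the lysyl hydroxylase Plod2 by 1.75 ± 0.43, the lysyl oxidases Loxl3 and Loxl2 by 1.72 ± 0.51 and 1.65 ± 0.45, and the prolyl hydroxylase subunit P4ha2 by 1.02 ± 0.30. Lox itself stood at 36.7 to 221 CPM and 206 to 377 CPM (adjusted p = 0.0729). Dcn, the small proteoglycan decorin that binds collagen fibrils, was higher by 1.47 ± 0.34, and Efemp2, an elastic fibre protein, by 1.30 ± 0.38. Without both WT 3 and WT 4 none of these crosslinking enzymes was called and the median of their list was 0.59, and without both WT 1 and WT 2 there were 15 and a median of 2.14.

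Collagen chains of the basement membrane went both ways, with a median of 0.65 and positive differences in 9 of 12, none of them called. Col4a5 and Col4a6, head-to-head genes whose products form the α5 and α6 network under epithelia, were the 2 that were lower. Col4a6 stood at 14.4, 8.52, 22.2 and 25.7 CPM in WT and 5.47, 4.06, 2.94 and 2.99 CPM with cilengitide (-2.19 ± 0.38, adjusted p = 0.0193), and Col4a5 at 18.5, 16.7, 23.8 and 31.5 CPM and 6.75, 10.9, 7.84 and 7.41 CPM (-1.47 ± 0.24). Neither overlapped. Col4a6 lay at 0 to 0.0877 CPM in the vehicle-treated Col5a1CKO wounds.

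Among the targets of cilengitide and their partners, 2 of 6 genes were higher. Itgb3, the β3 subunit that pairs with αv, was at 26.2, 32.2, 19.9 and 16.4 CPM in WT and 57, 69.9, 51.1 and 55.8 CPM with cilengitide (1.31 ± 0.21, adjusted p = 0.0193), every cilengitide library above every WT library. Itgb1, the subunit shared by the main collagen and fibronectin receptors, was at 513, 575, 289.9 and 231 CPM and 755, 1006, 1012 and 1090.1 CPM (1.26 ± 0.29). Itgav, the αv subunit, reached adjusted p = 0.0344 but 0.71 is less than 2-fold, with 76.5 to 109 CPM against 122 to 197 CPM. Itgb5, the β5 subunit of the other integrin that cilengitide blocks, differed by 0.27 ± 0.18 (adjusted p = 0.299), and the epithelial subunit Itgb6 by 0.68 (adjusted p = 0.0753). Itga5, which pairs with β1 as the fibronectin receptor, was higher by 1.48 ± 0.35, the 1 called of 9 other matrix integrins. In vehicle-treated Col5a1CKO wounds Itgb3 stood at 181, 132, 121 and 68.3 CPM, with a difference from the same WT libraries of 2.37.

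Ligands of these integrins were higher in 4 of 17 cases, and all 17 had positive differences (median 1.23, over single left-out libraries 0.94 to 1.83). Spp1 (osteopontin) was at 112, 98.8, 25.2 and 16.3 CPM in WT and 672, 312, 409 and 1146 CPM with cilengitide (3.33 ± 0.74, adjusted p = 0.0255). Thbs1 (thrombospondin 1), which also activates latent TGF-β, was at 172, 209, 73.2 and 55.7 CPM and 679, 492, 545 and 1423 CPM (2.62 ± 0.53). For both every cilengitide library lay above every WT library, and the vehicle-treated Col5a1CKO wounds held 1418 to 9605 CPM of Spp1 and 1267 to 11657 CPM of Thbs1. Fn1 (fibronectin) was higher by 1.10 ± 0.25, and Ctgf, given above, completes the group. Tnc (tenascin C), a matricellular protein of early repair, was at 642, 1132, 134 and 93.4 CPM and 2303, 2131, 1838 and 2601 CPM without overlap, but its difference of 2.15 ± 0.75 was not called (adjusted p = 0.0725), and that of Postn (periostin) was 1.22 ± 0.57 (adjusted p = 0.143).

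Of 18 tested matrix metalloproteinases 5 were higher and 0 lower (median 1.33). Mmp3 (stromelysin 1) was at 25.6, 31.3, 10.1 and 16.6 CPM in WT and 282, 69.9, 222 and 141 CPM with cilengitide (3.11 ± 0.52, adjusted p = 0.0193). Mmp8, the neutrophil collagenase, was at 1.4, 1.03, 0.988 and 0.286 CPM and 10.3, 6.43, 5.8 and 44.6 CPM (4.17 ± 0.84). Mmp10 (stromelysin 2), of migrating keratinocytes and macrophages, was at 7.4, 20.2, 2.01 and 3.61 CPM and 113, 13.5, 71.2 and 56.5 CPM (2.95 ± 0.86). Mmp3 and Mmp8 did not overlap, and cilengitide replicate 2 of Mmp10 lay under WT 2. Mmp2 (gelatinase A) was higher by 1.75 ± 0.50 and Mmp19 by the value given above, whereas Mmp13 at 6.29 to 106 and 129 to 306 CPM and Mmp9 at 15.1 to 270.3 and 228 to 606 CPM did not pass the test (adjusted p = 0.0843 and 0.137). Mmp3, Mmp8 and Mmp10 are neighbours in the metalloproteinase cluster between Mmp7 and Mmp13 (NCBIM37, chromosome 9, 7272514 to 7699585), where 3 of 8 tested genes were higher and all 8 differences were positive (median 2.15). On the side of the plasminogen system 3 of 9 were higher. Plaur, the urokinase receptor, was at 9.61, 23.4, 9.52 and 4.61 CPM and 66.1, 30.4, 43.3 and 139 CPM (2.56 ± 0.62). Timp1, an inhibitor of metalloproteinases, was higher by 1.29 ± 0.35. A protease receptor and a protease inhibitor were thus among the higher genes together with the metalloproteinases.

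Mmp3, Mmp10 and Plaur are shown with the 250 bases before their start, because each holds the motif TGANTCA, read on both strands, to which AP-1 factors such as Fos bind. The sequences are from RefSeq on GRCm38.p6, written 5′ to 3′ on the gene's strand, with the motif in capitals (N is any base). Of all 32851 promoter windows of this length, 6.75% hold the motif. Of the 18 tested metalloproteinases 13 were matched to a window and 4 held it (Mmp3, Mmp10, Mmp12 and Mmp13), and of the 9 plasminogen system genes 6 were matched and 2 held it (Plaur and Serpinb2). The motif begins 46 bases before the start of Mmp3, 63 before Mmp10 and 69 before Plaur, which is a description of the sequence only. They are shown for the motif, and the called Mmp8 and Timp1 have no match in their windows.
Mmp3, chr9:7445572-7445821, plus strand: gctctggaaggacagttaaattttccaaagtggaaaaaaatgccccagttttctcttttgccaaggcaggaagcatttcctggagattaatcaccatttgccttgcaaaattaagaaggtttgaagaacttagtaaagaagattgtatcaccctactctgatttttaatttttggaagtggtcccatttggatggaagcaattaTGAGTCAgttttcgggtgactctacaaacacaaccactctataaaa
Mmp10, chr9:7502092-7502341, plus strand: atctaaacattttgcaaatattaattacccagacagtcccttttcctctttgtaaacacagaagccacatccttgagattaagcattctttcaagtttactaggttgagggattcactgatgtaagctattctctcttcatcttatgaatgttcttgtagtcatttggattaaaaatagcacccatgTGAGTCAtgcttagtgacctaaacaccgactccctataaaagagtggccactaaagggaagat
Plaur, chr7:24462233-24462482, plus strand: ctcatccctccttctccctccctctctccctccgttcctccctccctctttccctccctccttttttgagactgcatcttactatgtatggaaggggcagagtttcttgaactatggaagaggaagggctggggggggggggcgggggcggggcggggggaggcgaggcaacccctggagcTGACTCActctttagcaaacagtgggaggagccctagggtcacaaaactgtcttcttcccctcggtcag
Among the AP-1 genes themselves, Fosb was at 4.25, 3.28, 3.41 and 4.25 CPM in WT and 11, 6.48, 9.42 and 18.6 CPM with cilengitide (1.58 ± 0.31, adjusted p = 0.0207). Fos was higher by 1.47 ± 0.38 and Atf3, a stress-induced member of the wider family, by 1.53 ± 0.34. They belong to the 4 higher of 13 immediate early and heat shock genes, of which 1 was lower (Egr2, -1.27).

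Contractile genes of myofibroblasts and smooth muscle were higher in 6 of 14 cases and lower in 0 (median 1.45, over single left-out libraries 1.19 to 1.93). Cnn1 (calponin 1) was at 1.22, 3.25, 0.0719 and 0.59 CPM in WT and 18.8, 22.5, 11.2 and 27.5 CPM with cilengitide (3.96 ± 0.90, adjusted p = 0.0263). Actg2, the enteric smooth muscle actin, was at 11.1, 20.7, 3.4 and 2.06 CPM and 54.5, 88.6, 52.5 and 73.3 CPM (2.85 ± 0.69), and Tagln (transgelin) at 56.5, 119, 13.5 and 22.6 CPM and 202, 224, 194 and 316 CPM (2.15 ± 0.63). None of these 3 overlapped. Lmod1, Cald1 and Actn1, which nucleate, bind and crosslink actin filaments, were higher by 1.70, 1.40 and 1.17. Acta2, the α-smooth muscle actin that defines myofibroblasts, was at 127, 317, 34.8 and 38.8 CPM and 634, 866, 374 and 928 CPM, a difference of 2.44 ± 0.73 with adjusted p = 0.0506, so it was just short of the threshold, and DESeq2 called it. Without both WT 3 and WT 4 none of the list was called (median 0.85), and with all 3 groups in a single fit 5 were.

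**Figure D4:**
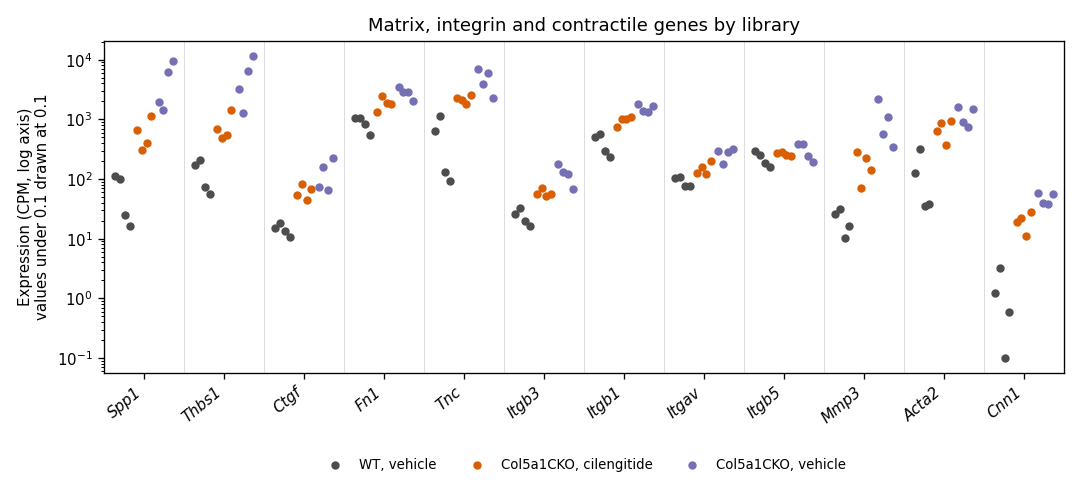
Matrix, integrin and contractile genes in each library of WT, cilengitide-treated and vehicle-treated Col5a1CKO wounds, in CPM on a log axis, 1 point a library in replicate order, with values under 0.1 drawn at 0.1. Spp1, Thbs1, Ctgf, Itgb3 and Cnn1 lie above WT in every cilengitide library, whereas Itgb5 overlaps WT.

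Of 16 TGF-β pathway genes 3 were higher and 0 lower, against 5.15% and 3.43% of all genes tested. None of the 16 was called without WT 3 or without WT 4, 2 with all 3 groups in a single fit and 1 with sex as a covariate. Inhba, the activin A subunit, was at 9.83, 13.9, 3.23 and 2.74 CPM in WT and 43.5, 26.6, 21.9 and 49.3 CPM with cilengitide (2.26 ± 0.57, adjusted p = 0.0326). The latent TGF-β binding proteins Ltbp2 and Ltbp1 were higher by 2.63 ± 0.75 and 1.36 ± 0.40, Ltbp1 with cilengitide replicate 1 inside the WT range. Tgfb1 passed on p but not on size (0.94, adjusted p = 0.0375). Of 12 genes of YAP and TAZ signalling the median was -0.02: the factor Tead4 was lower (-1.15) and Cyr61, a target of this pathway counted among the integrin ligands, was at 9.89 to 64 CPM and 113 to 127 CPM without overlap (1.73, adjusted p = 0.0569). None of 13 fibroblast markers was called, 5 were higher at an unadjusted p under 0.05 and by DESeq2, their median was 1.13, and their summed level was 1089.6, 959.6, 754 and 399 CPM in WT and 1246, 2004, 2515 and 1417 CPM with cilengitide, above every WT library. The part of fibroblast content in the matrix and contractile differences was not tested.

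Genes of leukocyte adhesion and innate sensing were above WT. Of 13 leukocyte integrins and adhesion molecules 9 were higher and 0 lower, with a median of 1.61 (1.25 to 1.75 over single left-out libraries). Itgam (CD11b), the integrin α subunit of neutrophils and macrophages, was at 38.4, 37.7, 30.4 and 19.9 CPM in WT and 94.6, 92.5, 90 and 234 CPM with cilengitide (2.01 ± 0.37, adjusted p = 0.0195), and Ptprc, which marks all leukocytes, at 53.1, 53.9, 38.7 and 34.9 CPM and 119, 104, 95.1 and 234 CPM (1.61 ± 0.31). In both genes cilengitide replicate 4 stood far above replicates 1 to 3, which lay close together and above WT. The platelet and endothelial selectin Selp was higher by 3.02 ± 0.71. In the vehicle-treated Col5a1CKO wounds Itgam lay at 258 to 1438 CPM and Ptprc at 270.3 to 1008 CPM. Summed over the leukocyte list the WT libraries held 149 to 301 CPM and the cilengitide libraries 503 to 1122 CPM, and the number of leukocytes in each punch was not measured here. Without WT 3 none of the 13 was called, without WT 4 there were 2, and with all 3 groups in a single fit 3.

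Innate receptors were higher together with these. Of 16 pattern recognition receptors 9 were higher, and 13 had no overlap (median 1.82). Tlr2, which senses bacterial lipoproteins, was at 10.9, 11.5, 11.8 and 4.93 CPM in WT and 64.1, 23.4, 30.4 and 65.6 CPM with cilengitide (2.24 ± 0.43, adjusted p = 0.0205). Cd14, a co-receptor for endotoxin, was at 8.6, 31.3, 19.2 and 4.9 CPM and 124, 50.8, 78.2 and 493 CPM (3.54 ± 0.90), and the myeloid lectins Clec4e (Mincle) and Clec4d were higher by 3.78 ± 1.0 and 3.29 ± 0.75. Every cilengitide library of these genes lay above every WT library. Tlr4 and Tlr13 were higher by 1.75 and 1.97. Of 10 inflammasome genes 5 were higher: Mefv (pyrin), Naip5, Naip2, Nlrc4 and Gsdmd, the first 3 by 2.58, 1.61 and 1.48. Nlrp3 and Casp1 were not called (3.05 and -0.37, adjusted p = 0.0563 and 0.0502). Complement genes were higher in 6 of 15 cases, led by C3 at 29.5, 15.2, 33.6 and 12.4 CPM and 75, 264, 312 and 148 CPM (3.14 ± 0.52, adjusted p = 0.0193), by Cfb, which forms the alternative pathway convertase, with 2.51 ± 0.65, and by the C5a receptor C5ar1 with 2.34 ± 0.44. For C3 cilengitide replicates 2 and 3 were the highest, unlike the leukocyte genes. Without WT 3 none of the receptor list and 1 of the complement list was called, and without WT 4 they numbered 3 and 5.

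Chemokines of neutrophils varied more between wounds. Of 9 neutrophil chemokines and receptors 4 were higher and the median was 3.48, the largest list median on the positive side. Cxcl3 was at 1.18, 4.19, 2.43 and 0.912 CPM in WT and 13.9, 13.6, 21.1 and 196 CPM with cilengitide (4.80 ± 1.13, adjusted p = 0.0282), and Csf3r, the G-CSF receptor of neutrophils, at 5.91, 21.1, 11.5 and 2.77 CPM and 76.9, 28, 41.8 and 239.7 CPM (3.23 ± 0.87). Cxcr1 was higher by 4.26 ± 1.21, at 0 to 0.162 CPM against 0.381 to 5.22 CPM. Cilengitide replicate 4 was the highest for these 3 genes, and without it Cxcl3 differed by 2.92 and Cxcr1 by 2.67. Summed over the list, the WT libraries held 40.7, 114, 62.7 and 20.1 CPM and the cilengitide libraries 311, 109.7, 199.9 and 1349.6 CPM, replicate 2 being under WT 2. None of the 9 was called without WT 3, without WT 4 or with all 3 groups in a single fit. DESeq2 called the 7 to which it gave an adjusted p, and Cxcl3 and Cxcr1 were not among them. Cxcl2 at 3.35, 40, 21.1 and 4.33 CPM and 101, 38.2, 52.2 and 589.8 CPM overlapped and was not called (adjusted p = 0.0681). Of 17 monocyte chemokines and receptors 7 were higher: Ccl7 was at 8.19, 8.32, 7.51 and 2.41 CPM and 35.2, 16.5, 23.8 and 37.1 CPM (2.10 ± 0.42), Ccl8 was higher by 2.12 ± 0.54 and the receptor Ccr1 by 2.78 ± 0.68. Ccl2, the main monocyte attractant, was at 6.71, 6.85, 12.7 and 5.38 CPM and 35.9, 12, 10.8 and 26.3 CPM, overlapping and not called (1.43, adjusted p = 0.0583).

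Cytokines went both ways. Il1b, the product of activated myeloid cells, was at 6.79, 94.1, 23.6 and 5.51 CPM in WT and 264, 87.2, 191 and 1045 CPM with cilengitide. Its difference of 3.61 ± 1.17 was not called (adjusted p = 0.0604), and WT 2 lay inside the cilengitide range. Of 13 IL-1 family genes 2 were higher and 3 lower. Il33, the alarmin of keratinocyte and endothelial nuclei, was at 76.2, 240.2, 70.6 and 45.9 CPM and 269, 803, 601 and 439 CPM (2.28 ± 0.57, adjusted p = 0.032) and the receptor Il1r1 was higher by 1.29 ± 0.28. The keratinocyte members Il1f6, Il1f5 and Il18 were lower, with -1.18, -1.01 and -1.04. Il1f6 was at 262, 175, 278 and 165 CPM and 139, 71.6, 94.4 and 81.3 CPM. Il1f5, Il1f6 and Il1f10 lie in a single cluster (NCBIM37, chromosome 2, 24041996 to 24207014), where 3 of 5 tested genes were lower, and Il1rn, the receptor antagonist at its end, differed by 0.48 (adjusted p = 0.34). Of 12 genes of TNF and NF-κB 3 were higher: Tnf at 2.62, 4.4, 3.76 and 1.77 CPM and 11.6, 6.75, 5.66 and 35.8 CPM (2.25 ± 0.63), its receptor Tnfrsf1b by 1.84 ± 0.40, and Tnfaip2 by 1.08 ± 0.28. In the IL-6 family 4 of 12 were higher. Il6 was at 0.217, 0.639, 0.359 and 0.0715 CPM and 4.25, 0.733, 2.06 and 5.24 CPM (3.26 ± 0.78), Il11 at 0.729, 0.923, 0.755 and 0.572 CPM and 3, 1.94, 4.21 and 3.29 CPM (2.06 ± 0.30, adjusted p = 0.0193), Osm (oncostatin M) was higher by 3.48 ± 0.92 and the feedback inhibitor Socs3 by 2.04. Ptgs2, the inducible cyclooxygenase, was higher by 3.68 ± 0.92, while the epidermal lipid enzymes Alox12 and Pla2g2f were lower (-1.39 and -1.27).

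**Figure D5:**
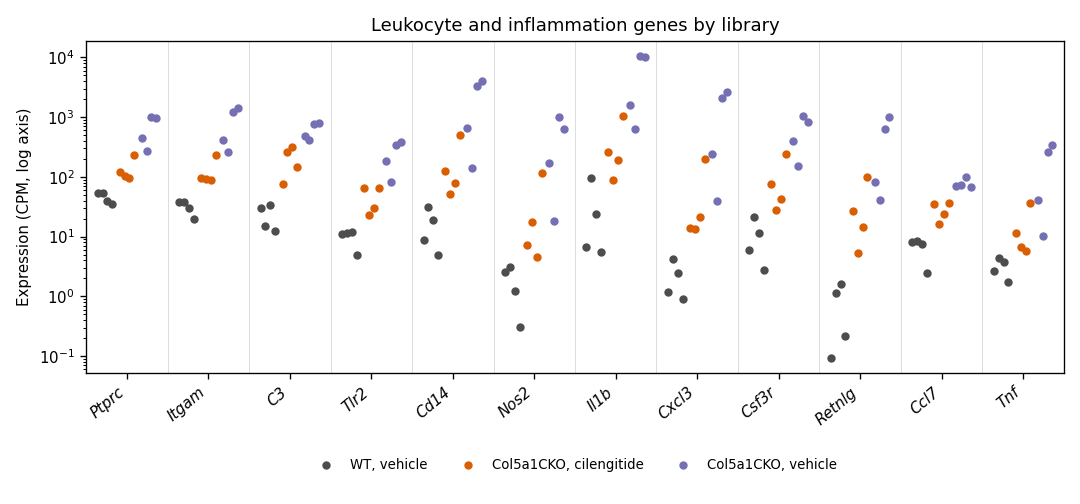
Leukocyte and inflammation genes in each library of WT, cilengitide-treated and vehicle-treated Col5a1CKO wounds, in CPM on a log axis, 1 point a library in replicate order. All of them but Il1b lie above WT in every cilengitide library, and cilengitide replicate 4 is the highest of its group for Itgam, Nos2, Il1b and Cxcl3.

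Macrophage activation genes were higher in 6 of 16 cases. Nos2, the inducible nitric oxide synthase, was at 2.51, 3.14, 1.22 and 0.304 CPM in WT and 7.26, 17.8, 4.59 and 117 CPM with cilengitide (4.34 ± 1.22, adjusted p = 0.0432), and its log2 fold change was 2.48 to 4.77 over single left-out libraries, lowest without cilengitide replicate 4. Chi3l3 (Ym1), which marks alternatively activated macrophages, was at 0.651, 2.38, 1.98 and 0.518 CPM and 51.3, 5.74, 8.55 and 20 CPM (3.97 ± 0.87). Nos2 and Chi3l3, of different activation states, were thus both higher, and so were Arg1 by 1.67, the scavenger receptor Msr1 by 2.29 ± 0.49, Cd68 by 1.17 and Csf1r by 1.04. The other 10 of the list were not called, and 3 of these had negative differences, down to -1.27 (list median 1.18). Of 12 neutrophil granule and alarmin genes 3 were higher. Retnlg, a resistin relative of neutrophils, was at 0.093, 1.12, 1.58 and 0.215 CPM and 26.8, 5.27, 14.5 and 97.7 CPM (5.59 ± 1.22), Stfa2l1 was higher by 4.63 ± 1.28, and Mpo (myeloperoxidase), at 0.233, 0.231, 0.252 and 0.125 CPM and 0.269, 3.43, 3.1 and 1.41 CPM, by 3.27 ± 0.73. Mpo was low in every library. S100a8 was at 317, 1024, 919 and 33.5 CPM and 1348, 2216, 2285 and 2779 CPM without overlap, though not called (1.91, adjusted p = 0.127). Among 20 interferon-stimulated genes 3 were higher, Oas2, Oas3 and Mx1, by 1.75 ± 0.35, 1.68 ± 0.42 and 1.40 ± 0.40, and all 20 had positive differences (median 1.21). Without WT 3 none of the macrophage list was called, and without WT 4 there was 1.

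T cell genes went both ways. Of 15 tested T cell and cytotoxic genes 2 were higher and 3 lower, with a median of -0.36. Nkg7, a granule protein of cytotoxic lymphocytes, was at 2.59, 2.33, 4.22 and 5.51 CPM in WT and 1.05, 1.82, 1.3 and 0.772 CPM with cilengitide (-1.57 ± 0.38, adjusted p = 0.0291), and Trat1, an adaptor of the T cell receptor, was lower (-1.77 ± 0.46). Gzma (granzyme A), at under 2 CPM, went the other way by 1.68 ± 0.36. Cd3e, a defining T cell gene, was at 10.6, 8.32, 14.3 and 15.4 CPM and 7.89, 8.49, 6.32 and 10.9 CPM and was not called (-0.54, adjusted p = 0.128). None of 11 MHC class II genes was called, nor at an unadjusted p under 0.05 or by DESeq2 (0 in each, median -0.10). None of 5 tested B and plasma cell genes or of 7 tested mast cell genes was called, with 1 higher in either list at an unadjusted p under 0.05 and 2 and 1 by DESeq2. Hdc, which makes histamine in mast cells and is also induced in neutrophils, was at 0.791, 21, 4.92 and 1.23 CPM and 69.1, 17.1, 46 and 331 CPM (adjusted p = 0.0635), while the mast cell proteases Cpa3 and Cma1 differed by 0.17 and 0.33.

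Among growth factors that act on keratinocytes, genes were called in both directions. In the EGF family 2 of 11 were higher and 1 lower, against 5.15% and 3.43% of all genes tested. None of the 11 was called higher without WT 3, without WT 4, with all 3 groups in a single fit or with sex as a covariate. Hbegf, released at wound edges, was at 19.1, 43.1, 19.3 and 10.5 CPM in WT and 42.7, 53.4, 92 and 102 CPM with cilengitide (1.66 ± 0.46, adjusted p = 0.0408), and Epgn was higher by 1.72 ± 0.52. Both ranges overlapped, Hbegf through cilengitide replicate 1 under WT 2 and Epgn through the same replicate under WT 1 and 2. Ereg was at 120.4, 53.7, 82.8 and 92.2 CPM and 43.1, 30.3, 36.3 and 32.2 CPM without overlap (-1.30 ± 0.24). In the FGF family Fgf7 and the receptor Fgfr1 (1.31 ± 0.38) were higher, and Fgf22 (-1.65 ± 0.38), an epidermal ligand, and Fgfr2 were lower. Fgfr2, whose epithelial form is the receptor for Fgf7, was at 112, 105, 151 and 169 CPM and 76.1, 58.9, 57.6 and 54.6 CPM (-1.12 ± 0.19, adjusted p = 0.0193) without overlap.

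Several lists showed no called member. Of 25 cell cycle genes none was called, 0 passed at an unadjusted p under 0.05 with 2-fold, 0 by DESeq2, and the median was 0.03, with Mki67, the proliferation marker, at 185, 167, 188 and 232 CPM in WT and 152, 159.9, 130.5 and 174 CPM with cilengitide (-0.33 ± 0.13, adjusted p = 0.101). None of 30 respiratory chain genes was called by either measure or tool (0 and 0, median -0.23), and 27 of them had negative differences. Of 22 genes of glycolysis and hypoxia the 2 higher ones were Adm (adrenomedullin) with 1.93 ± 0.40 and the lactate exporter Slc16a3 with 1.93 ± 0.44. Endothelial genes had positive differences in all 17 cases (median 1.25) and none was called (6 higher at an unadjusted p under 0.05, 7 by DESeq2), Cdh5 (VE-cadherin) being at 68.4, 118, 16.7 and 14 CPM and 154, 102, 74.1 and 134 CPM. WT 3 and 4 were low in summed endothelial RNA (425, 641, 124 and 104 CPM in WT 1 to 4), as they were in collagen RNA. Skeletal muscle genes, which would come from the panniculus carnosus under the wound, summed to 2848, 82.4, 6230.0 and 1769 CPM in WT and 1278, 126, 1289 and 386 CPM with cilengitide, and 0 of 24 were called, by an unadjusted p or by DESeq2 likewise. Red cell genes summed to 28.9, 50, 27.2 and 22.7 CPM and 54.9, 76.9, 55.4 and 168 CPM, and 3 of 6 were higher. These were Alas2 (1.63 ± 0.34) and the α-globin copies Hba-a1 and Hba-a2 (1.54 each), whose counts were identical in every library and cannot be told apart. Lipid genes of other skin cells went both ways: in the adipocyte list Cd36 was higher by 1.04 ± 0.28 and Dgat2 lower (-1.13 ± 0.20), and in the sebaceous list Plin2, a lipid droplet coat protein, was higher by 1.18 ± 0.18 and Scd3, a desaturase of the sebaceous gland, lower (-2.03 ± 0.53). Of 12 Schwann cell and melanocyte genes the myelin protein Pmp22 was higher by 1.07 ± 0.28.

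Other mice of the series allow the same genotype contrast without drug, in a second count table with 7 WT and 7 Col5a1CKO libraries at day 14. Of the 761 genes called higher here that were also tested there, 310 were called higher there (40.7%), against 5.55% of all 14310 genes tested in both tables, and those 310 are 39.0% of the 794 higher genes of that table. Of 455 called lower here and tested there, 83 were called lower (18.2%), against 2.73% of all genes, and these are 21.3% of the 390. None was called in the opposite direction, and the median log2 fold change there was 1.50 for the higher genes and -2.33 for the lower, against -0.03 over all genes. The WT libraries are of different mice, so these shares do not rest on shared controls, but the mice there received no cilengitide. That table fell into 2 sets of libraries by GC-rich against GC-poor genes (2 of 7 Col5a1CKO and 3 of 7 WT in the same set), and with the set as a covariate the counts were 444 and 114, while that table's own calls rose from 801 to 1299 higher and from 390 to 558 lower genes of 14368. Sod3, Mmp3, Itgb3, Ptprc and Itgam were called there too, with 3.20, 3.61, 1.52, 2.14 and 2.55 (adjusted p = 0.00221, 0.0103, 0.0133, 0.0104 and 0.00515). Card14, Krt77 and Flg2 had -2.22, -3.45 and -3.28 without passing the test (adjusted p = 0.196, 0.26 and 0.11). Il33, which was higher with cilengitide, had -0.40 there (adjusted p = 0.816). Set beside the same 4 WT libraries, the list medians of vehicle-treated Col5a1CKO wounds were 3.29 for leukocyte adhesion, 3.88 for innate receptors, 2.04 for contractile genes, 1.66 for the integrin ligands and -1.63 for the wound-edge keratins. With cilengitide the corresponding medians were 1.61, 1.82, 1.45, 1.23 and 1.09.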

How the data were processed

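RNA of wounded skin was sequenced in bulk. The authors deposited raw counts per gene symbol for the cilengitide experiment (12 libraries, 51211600 to 68266760 counts each) and raw counts per RefSeq transcript for the other mice (15044596 to 35534563 counts each after the step below), with a transcript length column that was not used. Per the submitters' processing notes, reads were aligned with HISAT2 to mm9. For its bulk RNA the study describes single-end reads quantified by SeqMonk over RefSeq exons, without naming the cilengitide experiment. In that table a count of 2 was commoner than a count of 1 (5546 against 2393 values). The reason is unknown, and all counts were also halved as an alternative. A row without a gene symbol (4 to 131 counts a library) was left out, and of transcripts with a shared symbol the one with most counts was kept.

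Library sizes were scaled by TMM and genes kept by filterByExpr with min.count at 10. The robust quasi-likelihood test of edgeR 4.0.16 (R 4.3.3) was then run, each pair of groups in its own fit, as the study compared pairs. A call needed a Benjamini-Hochberg adjusted p under 0.05 over all genes tested and a 2-fold change. DESeq2 1.42.0, other scalings, no filter, all 3 groups in one fit, a 3-fold threshold and each library left out were alternatives. Ratios of Col5a1 to other collagens were compared by 2-sided exact permutation. The scripts were tested on simulated data. P-values measure the spread between these mice only.

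The gene lists and the genes named were chosen with earlier results of these data known. Named were Col5a1, the 10 higher and 10 lower genes with the smallest adjusted p among called genes without overlap and with a mean of at least 5 CPM, up to 3 called members of each list by size of change, and a set of wound genes whether called or not. Other list members named, and Prm1, were chosen after their values were seen. Sex was read from Xist and Y-linked counts. Depth sets the counting error alone, which is small at these totals except for genes under about 1 CPM. Some list members are counted but not reported by name here.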

Additional observations from a re-analysis of the deposited data

Results flagged for a closer look

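Each gene named above and the ratios of Col5a1 were checked in both groups of 4 for a single library far from the other 3. The measure is the gap from the extreme library to its nearest neighbour as a share of the whole range of the group, and a share above Dixon's 95% critical value for 4 samples singled a library out. In independent groups of normally distributed values about 1 in 20 would exceed that value by chance. The groups here share libraries and include genes chosen after their values were seen, so their number cannot be set against that rate. Of 400 groups checked, 34 held such a library. Cilengitide replicate 4 was the high library in 14 of them, most of them genes of neutrophils, macrophages and their attractants, and the shares were Itgam 0.968, Cxcl3 0.959, Cxcr1 0.929, Nlrc4 0.905, Slc16a3 0.905, Ptgs2 0.889, Il1rn 0.887, Cxcl2 0.885, Mmp8 0.884, Nos2 0.882, Stfa2l1 0.882, Hdc 0.834, Cd14 0.833 and Ptprc 0.830. Cilengitide replicate 1 was high for 5 genes of the upper epidermis, with shares of Krt1 0.981, Krt10 0.950, Flg2 0.890, Acer1 0.868 and Krt78 0.835, and low for Col5a2 0.956. Cilengitide replicate 2 was high for Itgb6 0.865.

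Among the WT libraries, replicate 2 was the high one for Mx1 0.918, Lama3 0.885, Dsg3 0.884, Mmp9 0.863 and Il33 0.844. Replicate 1 was high for Prm1 1 and Mmp12 0.878, replicate 3 for Sod3 0.946 and replicate 4 for Plcxd2 0.902, and replicate 4 was the low one for Tnfaip2 0.882, Ccl7 0.863, Tlr2 0.863 and Mpo 0.835. The share of Prm1 comes from 1 count in 1 library.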

How the results depend on the processing

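The counts of called genes moved most. That each called gene kept its direction over single left-out libraries is little test, because the genes were selected in these same libraries. Against 799 higher and 532 lower genes, leaving out 1 library gave 1 to 1192 higher and 0 to 619 lower genes. The low ends came without cilengitide replicates 2, 3 and 4 (3 and 0, 1 and 0, 1 and 0), where the gene ranked 500 had an adjusted p just above 0.05, as given above, and without WT 3 (87 and 196) and WT 4 (287 and 268), and the high end without WT 2. DESeq2 gave 1540 higher genes, an unadjusted p 1473, a 3-fold threshold 381 and 216, and all 3 groups in one fit 310 and 173. Alternatives chosen after seeing the data gave 2118 and 887 without both WT 1 and WT 2, 11 and 10 without both WT 3 and WT 4, and 339 and 346 without both WT 2 and WT 4. Scaling by RLE or library size, no filter and, also chosen after seeing the data, sex as a covariate and halved counts kept both counts within 1.5 times. The cause of these shifts was not tested.

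The Col5a1 difference was called by DESeq2 alone (-1.71). It was -2.26 to -1.32 over single left-out libraries, -0.01 without both WT 1 and WT 2 and -2.48 without both WT 3 and WT 4. Its log2 ratios were, over single left-out libraries, -3.26 to -2.50 per Col1a1, -3.19 to -2.37 per Col1a2, -3.05 to -2.14 per Col3a1 and -3.42 to -2.78 per Col5a2. The exact permutation p rose to 0.0571 for the first 3 ratios without any single WT library. Krt85 changed sign without both WT 2 and WT 4 (1.29). Without WT 4 alone Krt85, Cma1 and Cpa3 changed sign (0.28, -0.02 and -0.19), and Il1rn did without cilengitide replicate 4 (-0.01). None of these was called with all 8 libraries. Without both WT 2 and WT 4, 1 of the 24 hair shaft and inner root sheath keratins was called higher and 1 lower.

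For the comparison of cilengitide-treated Col5a1CKO with WT no paired analysis was run, because the cilengitide libraries carry no replicate numbers. The ranges of the numbers in the titles, described above, were not tried as a block. In the other mice the letters a to g were tried as a replicate block, and of the genes called with cilengitide 310 were then higher and 144 lower, in place of 310 and 83, while the table's own calls went from 801 and 390 to 758 and 566. DESeq2 gave 273 lower, with 925 lower in all. Correlations of same-lettered libraries ran from -0.446 to 0.575, 5 of 7 were over 0.1 and 3 of 14 libraries correlated best with their own letter, so the letters were not taken as pairs.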
